A study of Homo sapiens with 4 samples.

Results

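The genes described here are the listed members of the main heat shock protein and chaperonin families in A549 cells depleted of USP2-AS1. They were chosen by symbol and biotype: protein-coding genes whose symbol begins with HSPA, HSPB, HSPD, HSPE, HSPH, HSP90 or DNAJ, begins with CCT followed by a digit, or is TCP1. Of the 6828 genes in the deposited table, 42 met this rule, under 41 symbols, because HSPA14 is listed under 2 identifiers. The rule uses no measured value, but it was set with earlier results of these data known. The table itself was selected by value: every one of its 6828 genes has an adjusted p below 0.05 in the comparison of the authors. A chaperone gene that is not listed therefore has no value here, and the call of a listed member is not a finding, so that the direction and the size of the change carry the description.

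A549 is a human lung adenocarcinoma cell line. RNA was taken 72 h after infection with lentiviruses expressing a control shRNA (shctrl) or an shRNA against the long noncoding RNA USP2-AS1 (shUSP2-AS1), and each group has 2 libraries. Both groups were thus infected and differ in the shRNA. Which of the shRNAs against USP2-AS1 was sequenced is not given in the sources used here, so that loss of USP2-AS1 and another effect of the same shRNA cannot be told apart.

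Depth, counted over the listed genes only, was 10772788 to 14120472 reads per library. The targeted RNA itself was covered by few reads, 24 and 22 with the control shRNA and 2 and 7 with the shRNA against USP2-AS1, and its log2 fold change was -2.39 (SE 0.56, limma adjusted p = 0.000597). Among the epithelial markers, KRT7, KRT8 and KRT18 were lower in shUSP2-AS1, KRT19 was higher, and EPCAM and CDH1 are not listed. Of 4 fibroblast markers, THY1 and COL1A1 are listed, COL1A2 and PDGFRB are not, and the summed normalized read count rose from 437 and 481 (shctrl) to 992 and 1149 (shUSP2-AS1). THY1 (chr11:119415476-119424985, minus strand) lies within the annotated span of USP2-AS1 itself (chr11:119364359-119526664, plus strand). None of the 3 endothelial or the 3 blood markers is listed. The part of these marker changes in the chaperone results was not tested.

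Chaperones bind unfolded or partly folded proteins. HSP70 proteins cycle between tight and loose binding with their ATP, DNAJ proteins bring clients to them and stimulate the ATPase, and nucleotide exchange factors, the HSP110 proteins among them, reset the cycle. HSP90 acts later on signalling proteins such as kinases and steroid receptors, small HSPs hold unfolded chains without ATP, and the chaperonins enclose a client in a barrel: TRiC, built from TCP1 and the CCT subunits, in the cytosol, and HSPD1 with its lid HSPE1 in mitochondria. The cytosolic genes are the classical targets of the heat shock factor HSF1, whereas chaperones of the endoplasmic reticulum (ER) answer to the unfolded protein response.

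In the comparison of shUSP2-AS1 with shctrl, 14 members were higher and 28 were lower. Over all 6812 genes tested, 50.6% were higher and 49.4% were lower, and 6811 were called (100%). The median log2 fold change was -0.56 over the members and 0.19 over all genes tested. Past a log2 fold change of 1 or -1, HSPB8 was the 1 member that was higher, against 16.1% of all genes, and 5 members were lower, against 13.5%: DNAJC9, both HSPA14 identifiers, TCP1 and CCT6A. The lower count was 11 with RLE scaling and 8 without shUSP2-AS1 replicate 2, and the higher count was 2 without shctrl replicate 1, shUSP2-AS1 replicate 1 or shUSP2-AS1 replicate 2. The groups did not overlap in any of the 42 members; over all genes, the groups were apart in the higher direction in 50.6% and in the lower direction in 49.3%.

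**Figure D1:**
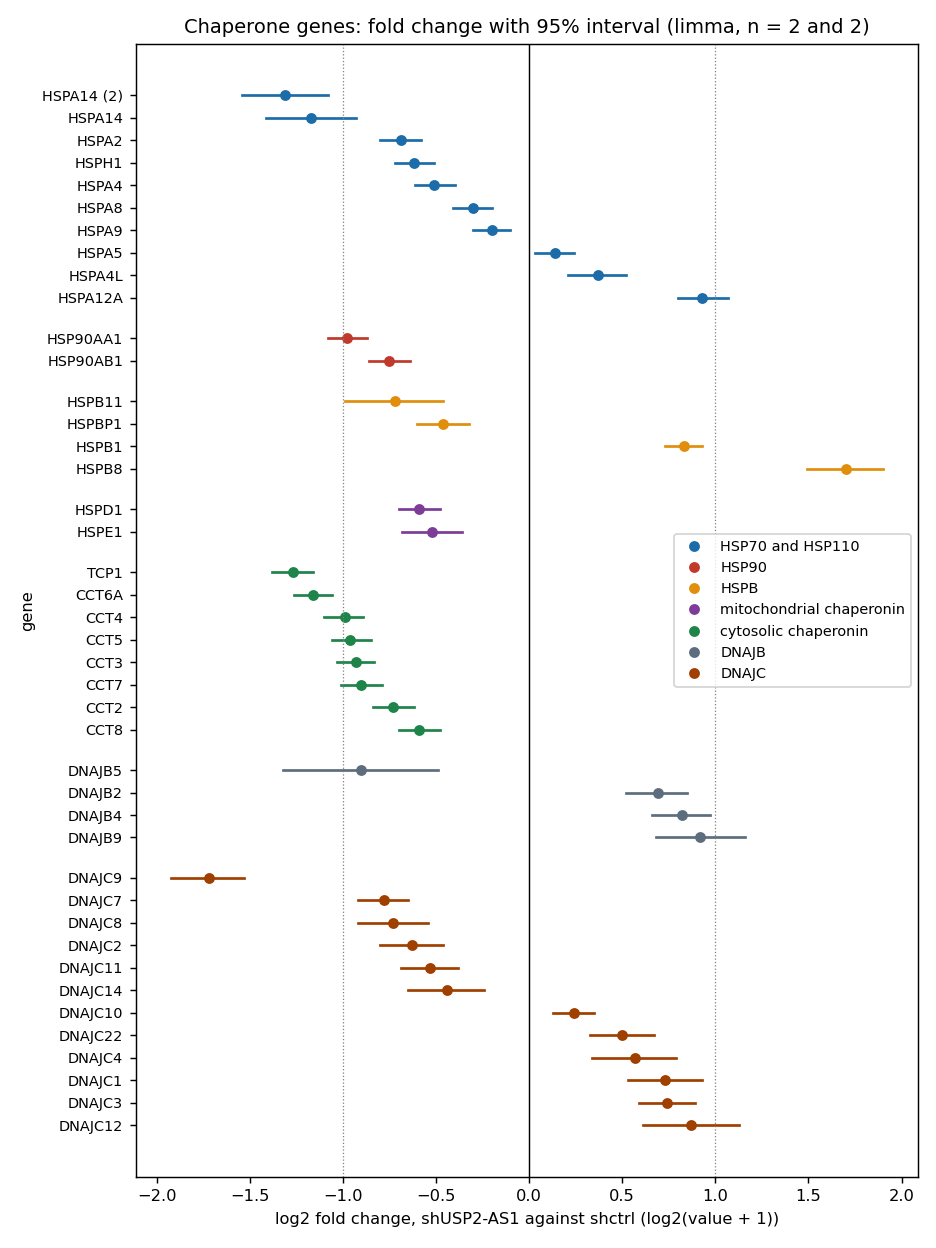
Log2 fold change of each of the 42 members, on the log2(value + 1) scale, grouped by family; points are limma estimates from 2 libraries per group, lines are 95% intervals, and dotted lines mark a log2 fold change of 1 in either direction. HSPA14 (2) is the identifier ENSG00000284024. All 8 cytosolic chaperonin genes lie between -1.27 and -0.59, whereas HSPB8 lies at 1.70.

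Summed over their listed members, the levels of the families went in both directions. Genes that are not listed are absent from these sums, and every listed gene had passed the adjusted p of the authors. A normalized read count is the number of reads of a gene over the size factor of its library. Summed over all members, it was 228047 and 225734 in shctrl and 156937 and 164613 in shUSP2-AS1, or 70.9% of shctrl. The sum over the 8 cytosolic chaperonin genes came to 51.9% of shctrl, that over the 2 HSP90 genes to 54.9%, and that over the 2 mitochondrial chaperonin genes to 66.7%. HSP70 and HSP110 genes summed to 86.0% and DNAJC genes to 95.9%, whereas the HSPB genes summed to 153% and the DNAJB genes to 164%. With 2 libraries per group, an exact permutation test of such a sum cannot go below p = 0.333 (two-sided), the value that each of these sums gave. In bulk RNA, fewer cells of a type and less RNA per cell cannot be told apart.

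The heat shock response and the unfolded protein response act through short promoter elements, which are shown here for members of both directions. In RefSeq promoters (GRCh38.p14, 250 bases before to 50 bases after the start), 36 of the 42 members were matched. Both strands were searched for the heat shock element core, TTCNNGAA or GAANNTTC, for its form of 3 units, in which another unit follows the core at the same spacing, so that each match also holds the core, and for the ER stress element, CCAAT and CCACG set 9 bases apart. Capitals mark the fixed letters of the element, and each sequence reads in the direction of its gene.
HSPA8, first element: gggccccTTCtgGAAggTTCtaagata
HSPA8, second element: cgagcttGAAagTTCcaGAAcgctgcg
HSPA5: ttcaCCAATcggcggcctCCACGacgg
HSPB1: ttaacgagaGAAggTTCcagatgagg
HSPB8: atcacctccGAAtaTTCctgtgacag
TCP1: gtttgaggcGAAggTTCaacctcttc

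Ranges are those of the whole stretch shown, and positions are those of the first base of the element within it, from the start. The HSPA8 stretches lie on the minus strand at chr11:123062172-123062198 (position -55) and chr11:123062347-123062373 (position -230). The HSPA5 stretch lies on the minus strand at chr9:125241387-125241413 (position -66). Those of HSPB1 (chr7:76302482-76302507, position -182) and HSPB8 (chr12:119178834-119178859, position -88) lie on the plus strand. That of TCP1 (chr6:159789817-159789842, position -231) lies on the minus strand. The core was found in 6 of the 36 member promoters (16.7%), those of HSPA8, HSPA9, HSPB1, HSPB8, TCP1 and CCT4, and in 11.6% of 22048 promoters. It stood in 2 of 12 promoters of members that were higher and in 4 of 24 of members that were lower. The form of 3 units was found in HSPA8 alone among the members and in 0.404% of all promoters, and the ER stress element in HSPA5 alone and in 0.104%. A single window per gene was searched, so that an element at another start of a gene, HSP90AA1 among them, would not be seen. A match is a description of the letters and not a bound site, and the lack of a match is not the lack of an element.

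Values of a gene are given below as normalized read counts in shctrl libraries 1 and 2, against those in shUSP2-AS1 libraries 1 and 2. The cytosolic chaperonin was lower in all of its listed subunits, 8 of 8, with a median log2 fold change of -0.94. Its rings fold actin and tubulin and are built from all of these subunits. TCP1, the subunit alpha, had a normalized read count of 5038 and 5162 in shctrl and of 2055 and 2166 in shUSP2-AS1. This was the largest fall of the complex, with a log2 fold change of -1.27 (SE 0.05, 95% interval -1.38 to -1.16). CCT6A, the subunit zeta, fell from 7875 and 7846 to 3436 and 3594, a log2 fold change of -1.16 (SE 0.05). Both lost more than 1 log2 unit in every library, and neither group came near the other.

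CCT4, the subunit delta, had normalized read counts of 6144 and 6208 in shctrl and 3039 and 3162 in shUSP2-AS1 (log2 fold change -0.99). CCT5, the subunit epsilon, had 7427 and 7339 against 3678 and 3924 (log2 fold change -0.96). CCT3, the subunit gamma, had 10126 and 9758 against 5307 and 5137 (log2 fold change -0.93). These 3 subunits, each with an SE of 0.05, stood at 50.2%, 51.5% and 52.5% of their shctrl level. CCT7, the subunit eta, had 12827 and 12530 against 6483 and 7087 (log2 fold change -0.90). CCT2, the subunit beta, had 5605 and 5612 against 3237 and 3538 (log2 fold change -0.73). CCT8, the subunit theta, had 3551 and 3445 against 2269 and 2385, the smallest fall of the ring, at -0.59 (SE 0.05, 95% interval -0.70 to -0.48). The intervals of TCP1 and CCT8 do not overlap, so that the subunits, all lower, were not lower by the same amount.

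Per kilobase of gene length, CCT7 was the most abundant subunit in every library and TCP1 was the least abundant by group mean. The ratio of the highest to the lowest subunit was 3.46 and 3.38 in shctrl and 4.29 and 4.45 in shUSP2-AS1. The order CCT7, CCT3, CCT4, CCT6A, CCT2, CCT5, CCT8, TCP1 in the mean of shctrl kept its ends in shUSP2-AS1, where CCT8 passed CCT5. These ranks rest on the deposited gene length. By normalized read count CCT7 was the highest too, but in shctrl CCT8 (3551 and 3445) lay below TCP1 (5038 and 5162). Of the other chaperonin-related symbols of the rule, CCT6B and CCT8L2 are not listed. TCP1 overlaps ACAT2 and CCT3 overlaps TSACC, both on the other strand. The sources used here do not say if reads were counted by strand.

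**Figure D2:**
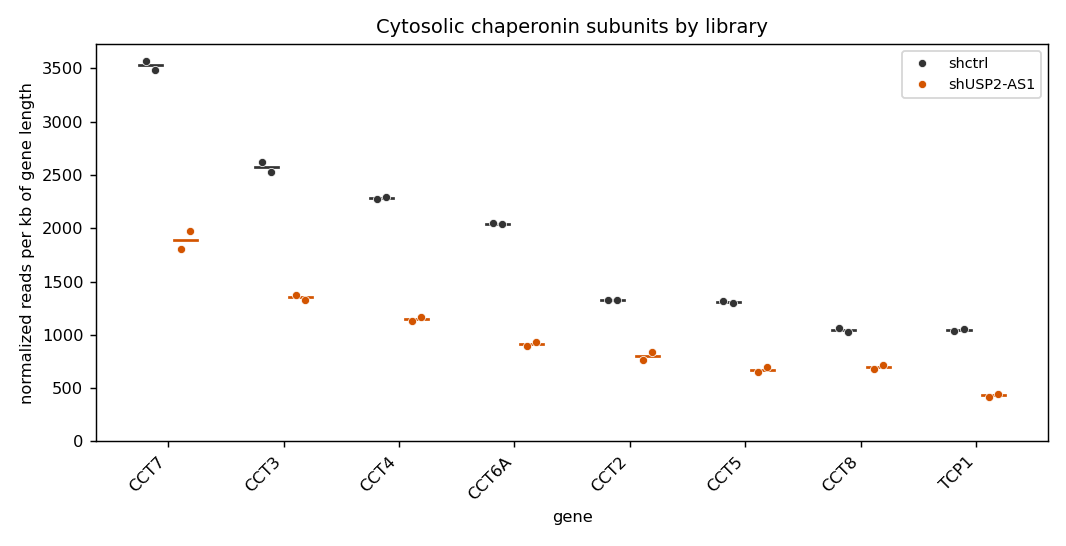
Normalized reads per kilobase of gene length for the 8 cytosolic chaperonin genes; points are libraries (2 per group) and bars are group means. In each gene both shUSP2-AS1 libraries lie below both shctrl libraries, and CCT7 stays highest and TCP1 lowest by group mean.

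Both genes of the mitochondrial chaperonin were lower as well. HSPD1, the HSP60 barrel, had normalized read counts of 14873 and 15046 in shctrl and 9486 and 10429 in shUSP2-AS1, and its log2 fold change was -0.59 (SE 0.05). HSPE1, the HSP10 lid, had 1003 and 937 against 646 and 704, a log2 fold change of -0.52 (SE 0.08). The genes lie on opposite strands of chromosome 2, from 197486584 to 197516737 (minus strand) and from 197500140 to 197503449 (plus strand), so that HSPE1 lies within the annotated span of HSPD1. HSPA9, the mitochondrial HSP70 that pulls proteins through the import channel, had 10309 and 10275 against 8689 and 9221, a log2 fold change of -0.20 (SE 0.05). The ratio of HSPD1 to HSPA9 per length was 2.78 and 2.82 in shctrl and 2.10 and 2.18 in shUSP2-AS1.

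Both listed HSP90 genes, which encode the cytosolic HSP90 proteins, were lower. HSP90AA1, the stress-inducible form, had normalized read counts of 33722 and 34267 in shctrl and 16711 and 17831 in shUSP2-AS1, and its log2 fold change was -0.98 (SE 0.05). HSP90AB1, the constitutive form, had 31464 and 30693 against 17923 and 19031, a log2 fold change of -0.75 (SE 0.05). The 95% intervals, -1.08 to -0.87 for HSP90AA1 and -0.86 to -0.64 for HSP90AB1, do not overlap but nearly meet. They may be too narrow, as the listed genes were selected by adjusted p. The ratio of HSP90AA1 to HSP90AB1 per length was 0.627 and 0.653 in shctrl and 0.545 and 0.548 in shUSP2-AS1. The processed pseudogene HSP90AA2P, a copy of HSP90AA1 that was kept out by its biotype, had 230 and 234 against 123 and 121, so that reads shared among these copies are uncertain. HSP90B1, the form of the ER, is not listed.

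The HSP70 and HSP110 members did not move as a group: 3 of 10 were higher and 7 were lower, with a median log2 fold change of -0.41. HSPA8, the constitutive cytosolic HSP70 and the most abundant HSP70 gene per length in every library, had normalized read counts of 28975 and 28048 in shctrl and 22530 and 23712 in shUSP2-AS1. Its log2 fold change was -0.30 (SE 0.05), with a 95% interval of -0.41 to -0.20 that lies above those of both HSP90 genes. The stress-inducible genes HSPA1A, HSPA1B and HSPA6 are not listed and have no value here. HSPA2, a form known from testis, had 4228 and 4126 against 2527 and 2649, a log2 fold change of -0.69 (SE 0.05).

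HSPA5, the ER HSP70 also called BiP, stood on the other side. It had normalized read counts of 11693 and 11728 in shctrl and 12522 and 13233 in shUSP2-AS1, and its log2 fold change was 0.14 (SE 0.05, limma adjusted p = 0.0121). The call was lost with RLE scaling of the reads (log2 fold change 0.02, adjusted p = 0.688), with the replicate number as a block (log2 fold change 0.14, adjusted p = 0.0529) and without shUSP2-AS1 replicate 2 (log2 fold change 0.10, adjusted p = 0.125). Against HSPA8 it was higher in relative terms, since the ratio of HSPA5 to HSPA8 per length was 0.499 and 0.517 in shctrl and 0.687 and 0.690 in shUSP2-AS1.

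The HSP110 branch, which acts as nucleotide exchange factor for HSP70, was split. HSPA4 had normalized read counts of 5408 and 5494 in shctrl and 3855 and 3813 in shUSP2-AS1 (log2 fold change -0.51, SE 0.05). HSPH1 had 3499 and 3577 against 2296 and 2323 (log2 fold change -0.62, SE 0.05). HSPA4L, the least abundant of the 3 per length, had 699 and 763 against 969 and 916 and was higher (log2 fold change 0.37, SE 0.07). HSPA12A, a distant relative of HSP70, had 1113 and 1096 against 2238 and 1989 and was the HSP70 gene with the largest rise (log2 fold change 0.93, SE 0.07). It overlaps ENO4 on the opposite strand.

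The largest falls of the family were those listed under the symbol HSPA14, an HSP70 that binds the ribosome with DNAJC2. The identifier ENSG00000187522 had normalized read counts of 445 and 403 in shctrl and 179 and 197 in shUSP2-AS1, and its log2 fold change was -1.17 (SE 0.11). The identifier ENSG00000284024 had 443 and 448 against 177 and 181, a log2 fold change of -1.31 (SE 0.11). Both lie on the plus strand of chromosome 10, from 14838306 to 14871741 and from 14838166 to 14847018, so that they share sequence and do not count as separate evidence. GENCODE release 44 names the latter MSANTD7, so that only the former is HSPA14 there. The counts and the median of the family hold both identifiers. DNAJC2, the ribosomal partner, was lower too, at 64.4% of its shctrl level (log2 fold change -0.63, SE 0.08).

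The small HSPs of the table rose. HSPB1, also called HSP27, had normalized read counts of 6919 and 6947 in shctrl and 12127 and 12561 in shUSP2-AS1, and its log2 fold change was 0.83 (SE 0.05). HSPB8, which works with BAG3 to hand misfolded proteins to autophagy, had 252 and 262 against 774 and 899, a log2 fold change of 1.70 (SE 0.10) and the largest rise among the members. Its partner BAG3 went the other way, with 2298 and 2320 against 1838 and 1765 (log2 fold change -0.36, SE 0.06). The remaining 2 members with the HSPB prefix are not small HSPs in function and were lower. HSPB11, an intraflagellar transport protein, had 285 and 255 against 158 and 168 (log2 fold change -0.72, SE 0.13), and HSPBP1, a nucleotide exchange factor of HSP70, had 2517 and 2165 against 1687 and 1698 (log2 fold change -0.46, SE 0.07). The median of the prefix group, 0.18, thus joins genes of different roles.

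The opposite shifts changed the make-up of the chaperone RNA. Per kilobase, HSP90 genes made up 30.1% of the summed reads of the 42 members in shctrl and 22.7% in shUSP2-AS1, and the cytosolic chaperonin 26.7% and 18.7%. The HSPB genes rose from 9.70% to 20.5%, most of it HSPB1, which went from 7.52% to 18.0% and from rank 4 to rank 1 among the members. HSP90AB1 went from rank 1 to rank 2. These shares and ranks rest on the deposited gene length, which is shortest for HSPB1 (1623 bases). By mean normalized read count in shUSP2-AS1, HSPB1 (12344) stayed below HSPA8 (23121), HSP90AB1 (18477) and HSP90AA1 (17271). The ratio of HSPB1 to HSPA8 per length was 0.714 and 0.740 in shctrl and 1.61 and 1.58 in shUSP2-AS1. The HSP70 and HSP110 share went from 22.5% to 25.9% while its summed count was lower.

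**Figure D3:**
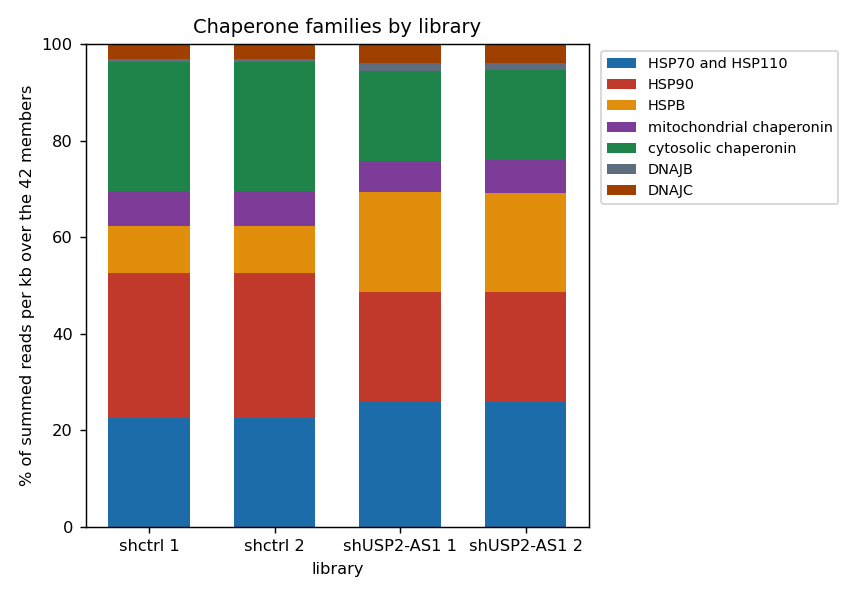
Share of each family in the summed reads per kilobase of the 42 members, in percent, for each of the 4 libraries. The 2 libraries of a group look alike, and in shUSP2-AS1 the HSPB share is 20.7% and 20.4% against 9.77% and 9.63% in shctrl.

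Of the DNAJ cochaperones, 9 were higher and 7 were lower. No DNAJA gene is listed, and neither is DNAJB1, the partner of HSPA8 in the heat shock response. Among the DNAJB genes, DNAJB9, an ER protein that is a classical target of the unfolded protein response, had normalized read counts of 306 and 254 in shctrl and 490 and 570 in shUSP2-AS1, and its log2 fold change was 0.92 (SE 0.11). DNAJB4, a cytosolic partner of HSP70, had 569 and 555 against 1016 and 967 (log2 fold change 0.82, SE 0.07), and DNAJB2, which also binds ubiquitin chains, had 521 and 570 against 859 and 897 (log2 fold change 0.69, SE 0.08). The only listed DNAJB gene that was lower is DNAJB5, with 120 and 100 against 58.9 and 57.2 (log2 fold change -0.90, SE 0.20). It rests on 56 to 124 reads per library, the fewest of all members, and its interval is the widest.

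DNAJC9, which chaperones histones H3 and H4 toward chromatin, had the largest fall among the members. Its normalized read count was 763 and 803 in shctrl and 231 and 242 in shUSP2-AS1, and its log2 fold change was -1.72 (SE 0.09, 95% interval -1.92 to -1.53), so that 30.2% remained. DNAJC9 lies on the minus strand of chromosome 10 from 73183362 to 73247255 and overlaps FAM149B1 on the opposite strand. DNAJC7, which binds both HSP70 and HSP90, had 1603 and 1510 against 903 and 907 (log2 fold change -0.78, SE 0.06). DNAJC8, a spliceosome-associated protein, had 841 and 765 against 448 and 521 (log2 fold change -0.73, SE 0.09). DNAJC11 of the mitochondrial outer membrane and DNAJC14 of the ER membrane were lower by less, with log2 fold changes of -0.53 and -0.44.

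The DNAJC genes with the largest rise were DNAJC12, DNAJC3 and DNAJC1. DNAJC12, a cochaperone of the aromatic amino acid hydroxylases, had normalized read counts of 157 and 151 in shctrl and 284 and 278 in shUSP2-AS1 (log2 fold change 0.87, SE 0.12). DNAJC3, an ER cochaperone of HSPA5 that also inhibits the kinase PERK, had 692 and 743 against 1227 and 1167 (log2 fold change 0.74, SE 0.07). DNAJC1, an ER membrane protein that faces HSPA5 in the lumen, had 503 and 411 against 741 and 768 (log2 fold change 0.73, SE 0.09). The 95% intervals of these ER partners, 0.59 to 0.89 and 0.53 to 0.93, lie above that of HSPA5, 0.03 to 0.24. The log2 fold changes of DNAJC4, DNAJC22 and DNAJC10, the last an ER reductase of disulfide bonds, were 0.57, 0.50 and 0.24. The median over the 12 DNAJC genes, -0.10, covers these opposite changes, as 6 were higher and 6 were lower.

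**Figure D4:**
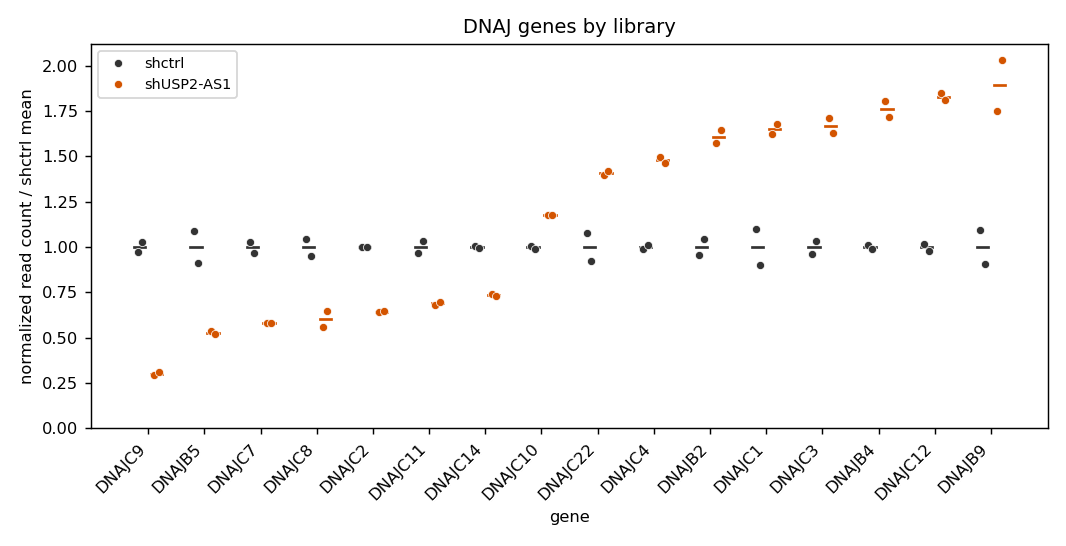
Normalized read count of each of the 16 listed DNAJ genes divided by its shctrl mean, ordered by the shUSP2-AS1 mean; points are libraries (2 per group) and bars are group means. The shUSP2-AS1 libraries of DNAJC9 lie near 0.3 and those of DNAJB9 between 1.7 and 2.1, with no gene in which the groups overlap.

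Grouped by compartment rather than by family, the listed members of the ER list (HSPA5, DNAJB9, DNAJC1, DNAJC3 and DNAJC10) were all higher, 5 of 5, with a median log2 fold change of 0.73, from 0.14 to 0.92. HSPA5 was the 1 among them whose call depended on the scaling. DNAJC14, which was not in that list, was lower, and 8 further ER genes of the list are not in the table. Of 5 mitochondrial members, DNAJC4 was higher and HSPA9, HSPD1, HSPE1 and DNAJC11 were lower, with a median of -0.52. Of the other 32 members, 8 were higher and 24 were lower, with a median of -0.71. Over all genes tested, 50.6% were higher and 49.4% were lower.

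Genes that work with these chaperones were taken from a list of 71, of which 38 are in the table. HSPBP1 is among them and is also a member by the rule. STIP1 is counted in both the HSP70 and the HSP90 group, and FKBP4 in the HSP90 group and among the heat shock regulators. Of the 38, 10 were higher (26.3%) and 28 were lower (73.7%), with a median log2 fold change of -0.56. Over all genes tested, 50.6% were higher and 49.4% were lower, the shares beside which the group counts below stand too. Past a log2 fold change of -1, 6 of the 38 were lower, against 13.5% of all genes tested. Past a log2 fold change of 1, 0 were higher, against 16.1%. All 11 listed genes of the HSP90 group were lower, with a median of -0.80 and a range from -1.58 to -0.29. FKBP4, an immunophilin of steroid receptor complexes, had normalized read counts of 4350 and 4308 in shctrl and 1353 and 1556 in shUSP2-AS1 (log2 fold change -1.58, SE 0.06). PTGES3, the p23 protein that stabilises the closed form of HSP90, had 5817 and 5929 against 2474 and 2575 (log2 fold change -1.22, SE 0.05). PPID, a cyclophilin, had 439 and 453 against 187 and 222 (log2 fold change -1.13, SE 0.11). This group also holds TRAP1, which is not a cochaperone but the mitochondrial form of HSP90 (log2 fold change -0.91, SE 0.06).

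Of the HSP70 cochaperones, 7 of 8 were lower, with a median log2 fold change of -0.63, and SIL1, the exchange factor of HSPA5 in the ER, was the 1 that was higher, with normalized read counts of 717 and 623 in shctrl and 1092 and 1126 in shUSP2-AS1 (log2 fold change 0.73, SE 0.08). BAG1, an exchange factor of cytosolic HSP70, had 1511 and 1429 against 725 and 706 (log2 fold change -1.04, SE 0.07). The mitochondrial exchange factors GRPEL1 and GRPEL2, which serve HSPA9, stood at 49.9% and 40.1% of shctrl. Their normalized read counts were 1036 and 1002 against 498 and 519 for GRPEL1, and 411 and 359 against 160 and 149 for GRPEL2. The 95% intervals of their log2 fold changes, -1.16 to -0.84 and -1.57 to -1.06, lie below that of HSPA9, -0.30 to -0.10.

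All 7 listed genes of prefoldin and the chaperonin helpers, which deliver clients to the cytosolic chaperonin or assemble large complexes, were lower, with a median log2 fold change of -0.77. Among them, the prefoldin subunits PFDN2 and PFDN4 had log2 fold changes of -0.77 and -0.47, and RUVBL1 and RUVBL2, ATPases of the R2TP assembly complex, of -0.92 and -0.93. ER folding genes went mostly the other way, as 7 of 9 were higher, with a median of 0.39. The collagen chaperone SERPINH1 had the largest rise of these (log2 fold change 0.73, SE 0.05), followed by HERPUD1 of ER-associated degradation (log2 fold change 0.66, SE 0.07) and the disulfide isomerase PDIA3 (log2 fold change 0.56, SE 0.05), whereas PDIA4 (log2 fold change -0.15) and SDF2L1 (log2 fold change -0.33) were lower. The mitochondrial proteases LONP1 and YME1L1 were lower, with log2 fold changes of -0.75 and -0.39. HSF1, the main heat shock factor, is not listed. Of the 3 listed genes in the group of heat shock regulators, HSBP1 and IER5 were higher, with log2 fold changes of 0.31 and 0.20, and FKBP4 was lower, as given with the HSP90 group. The calls of PDIA4 and IER5 were each lost in some alternatives.

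**Figure D5:**
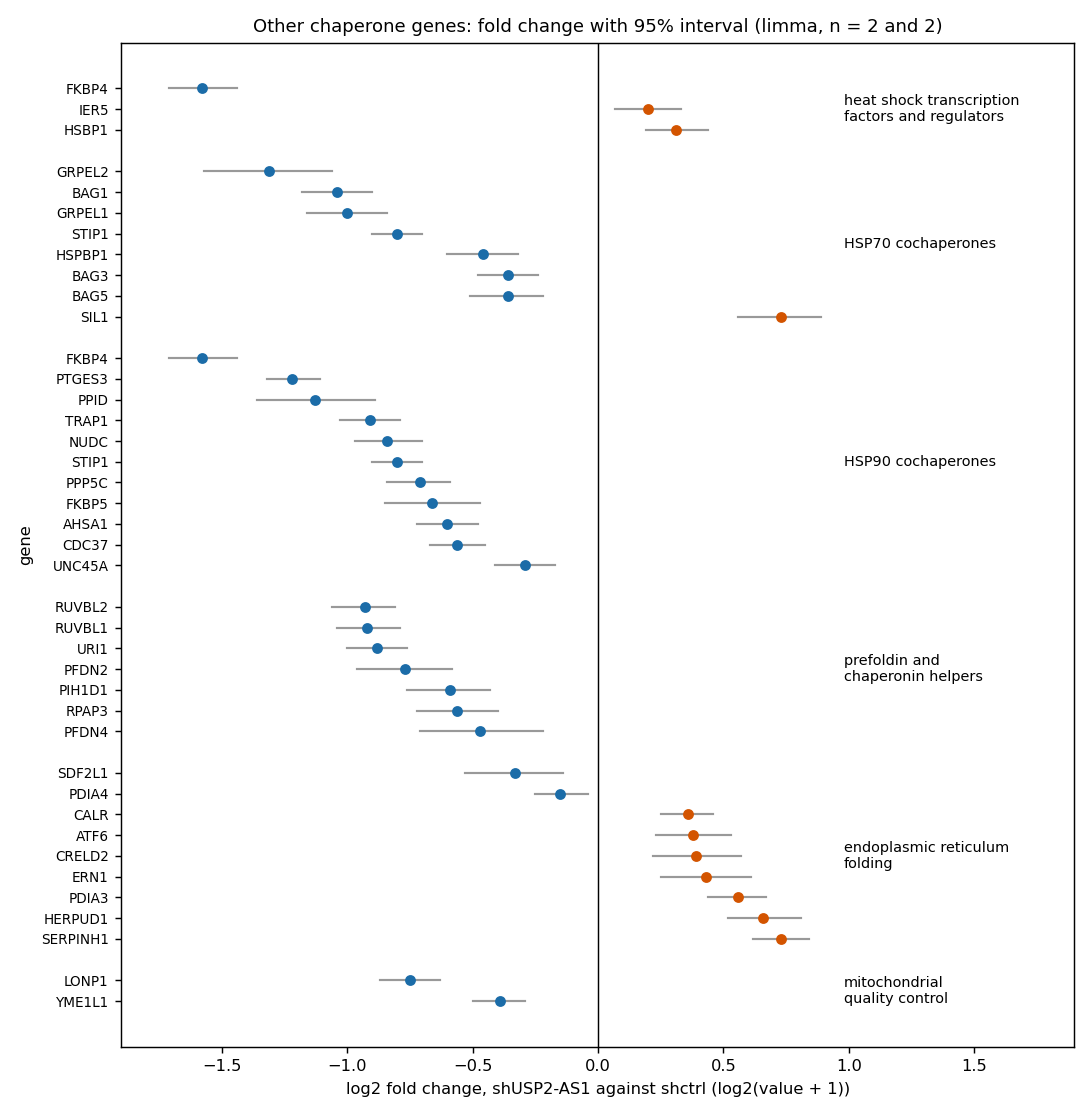
Log2 fold change, on the log2(value + 1) scale, of the listed genes from the list of other chaperone genes, by group; points are limma estimates from 2 libraries per group and lines are 95% intervals. FKBP4 and STIP1 stand in 2 groups each, HSPBP1 is also a member, and 7 of 9 ER folding genes lie right of 0 while all 11 of the HSP90 group lie left of it.

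Of the protein-coding genes in GENCODE release 44 that meet the same rule, 40 of 86 are listed; the other 2 members, HSPB11 and an HSPA14 identifier, have other symbols there. The share differed by family: 8 of 10 cytosolic chaperonin genes, 2 of 3 HSP90 genes, 9 of 15 HSP70 and HSP110 genes, 12 of 29 DNAJC genes, 4 of 12 DNAJB genes, 3 of 10 HSPB genes and 0 of 4 DNAJA genes. A gene that is not listed may be unchanged, too low to test or left out for another reason. Of the members, 15 overlap another protein-coding gene, 6 of them on the same strand, and 14 of the 41 symbols have annotated pseudogenes, 80 in all. How reads that match several copies were treated is not given in the sources used here.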

How the data were processed

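Poly-T-selected RNA of A549 cells was sequenced, with 2 libraries for shctrl and 2 for shUSP2-AS1, which the study calls biological replicates. Per the labels, the processing tools were HISAT2 (2.0.5), featureCounts (1.5.0-p3) and DESeq2 (1.20.0) on hg38, with no role stated. The deposited signal, here called the normalized read count, is the number of reads of a gene over the library's size factor, and gene lengths stand beside it. How these lengths were derived is not given in the sources used here, so that ranks and shares per kilobase depend on them. From their own DESeq2 comparison the authors deposited log2 fold changes with p-values, raw and adjusted, which were not used except to see that all 6828 genes passed 0.05. The library columns carry other names (scr and sh216) and were mapped through the scramble and knockdown heading of the study's own volcano plot. No column of another sample was present (0).

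Values divided by that of 1 read (0.966, 1.10, 1.05 and 0.880 in the order shctrl 1 and 2, shUSP2-AS1 1 and 2) gave whole reads, to within 0.02, for 100% of values. Genes with a mean of at least 10 (6812) were fitted on log2(value + 1), which understates changes of low genes, with limma (3.58.1, trend, R 4.3.3), and p-values were adjusted by Benjamini-Hochberg over all of them. Intervals per gene are 95% and come from this fit. It holds only genes selected by the adjusted p of the authors, which favours genes with close replicates. The SEs and intervals may therefore be too narrow. Alternatives were a pseudocount of 0.1, no filter or a mean of at least 100, TMM, RLE and upper quartile scaling, edgeR (4.0.16) and DESeq2 (1.42.0) on the recovered reads, a replicate block, and each library left out. The TMM, RLE and upper quartile factors came from the listed genes alone, all of them selected as changed. Replicates 1 and 2 were separate libraries, as their reads differed by more than sampling noise (chi-square per degree of freedom 3.75 in shctrl and 3.84 in shUSP2-AS1).

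The members and lists were chosen with earlier results of these data known. Every library's value is given for a core set, for the 3 largest rises and falls of each family, and for members past a log2 fold change of 1 in either direction. Other chaperone genes were named by the same fold, with further examples chosen after their values were seen. Coordinates are 1-based on hg38 (GRCh38), as deposited, and overlaps come from GENCODE release 44. Protein sequences were not analysed here.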

Additional observations from a re-analysis of the deposited data

How the results depend on the processing

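In all 13 alternatives, 41 of the 42 members kept their direction and an adjusted p below 0.05, where tested. HSPA5 lost its call in the 3 given with its values, and no member reversed. Every listed gene had already passed an adjusted p below 0.05 in the authors' comparison of the same libraries. Kept calls were thus nearly fixed in advance and add no support. With RLE scaling, which shifts the median of all genes by -0.12, 11 members were lower past a log2 fold change of -1 in place of 5 (DNAJB5, HSP90AA1, CCT3, CCT4, CCT5 and CCT7 were added), and the medians were -0.68 over all members, 0.63 (DNAJB), -0.22 (DNAJC), -0.52 (HSP70 and HSP110), -0.98 (HSP90), 0.0662 (HSPB), -1.06 (cytosolic chaperonin) and -0.67 (mitochondrial chaperonin). With upper quartile scaling they were -0.50 over all members, -0.0434 (DNAJC), -0.34 (HSP70 and HSP110), -0.80 (HSP90) and -0.88 (cytosolic chaperonin). Both scalings used the listed genes alone, all of them selected as changed, and not the whole transcriptome. With a mean of at least 100, DNAJB5 was not tested and 0 DNAJB genes were lower. Among the other chaperone genes, PDIA4 lost its call with upper quartile scaling (adjusted p = 0.104) and without shctrl replicate 1 (0.0628) or shUSP2-AS1 replicate 1 (0.0921), and IER5 with RLE scaling (0.2) and without shUSP2-AS1 replicate 2 (0.121), with directions kept.

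Leaving out 1 library at a time gave a median over all members of -0.60 to -0.52, 5 to 8 members lower past the fold and 1 to 2 higher. It was 8 without shUSP2-AS1 replicate 2, and 2 without shctrl replicate 1 or shUSP2-AS1 replicate 1 (DNAJB9 added) or shUSP2-AS1 replicate 2 (HSPA12A added). A group left with 1 library is assumed to vary like the other.

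The replicate numbers did not pair the libraries (correlation of the deviations -0.04). The replicate block gave 13 members higher and 28 lower, a median of -0.56, and HSPA5 at 0.14 (adjusted p = 0.0529). The lowest members, such as DNAJB5, are limited by depth.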
